A study of Arabidopsis thaliana with 30 samples.

Results

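MCCA (AT1G03090), MCCB (AT4G34030) and IVD (AT3G45300) are 3 Arabidopsis genes of leucine breakdown in the mitochondrion, each read by 1 probe set, 263118_at, 253279_at and 252570_at in that order. They are 3 of 22746 probe sets tested. They were chosen by name because their transcripts were higher after 1 to 3 h of added far-red light in earlier results of the same arrays. Their values at the start and after 1 and 3 h are therefore given as a description with no test. Tests are given only for the arrays of the 24 h groups.

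Leucine is degraded by a chain of mitochondrial enzymes that delivers electrons to respiration and acetyl-CoA to the citric acid cycle. IVD, isovaleryl-CoA dehydrogenase, oxidises isovaleryl-CoA to methylcrotonyl-CoA and hands its electrons to the electron transfer flavoprotein, from which ETFQO passes them to ubiquinone. Methylcrotonyl-CoA carboxylase then acts on the product of IVD. MCCA is its biotin-carrying subunit and MCCB its other, carboxyl-transferring subunit. In plants the pathway is known for transcripts that accumulate in prolonged darkness and carbon starvation, when amino acids are respired.

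RNA of whole seedlings was profiled on 30 1-colour arrays, in 10 groups of 3 biological replicates, for 2 lines: the wild type (Columbia) and the mutant pifq. The pifq line carries mutations in the 4 genes PIF1, PIF3, PIF4 and PIF5, which encode phytochrome-interacting transcription factors. Seeds of both lines were stratified for 5 days in the dark at 4 °C, and seedlings then grew for 2 days at 21 °C without sucrose in white light (19 µmol/m2/s, red to far-red ratio 6.48), which is the state called WL0. Far-red light was then added, lowering the ratio to 0.006, during 1, 3 or 24 h (called FR1, FR3 and FR24), or seedlings stayed in the plain white light another 24 h (WL24). The sample records also list a white-light exposure of 1.5 h, the same for all 10 groups.

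Such light resembles vegetation shade: a low red to far-red ratio inactivates phytochrome, which otherwise holds PIF proteins low. Each genotype was 1 line, so the mutations cannot be told apart from its background or seed stock. FR1 and FR3 seedlings were 1 and 3 h older than WL0 seedlings, so far-red light and elapsed time cannot be told apart at those times. FR24 and WL24 seedlings had the same age. About 400 mg of tissue was extracted per sample, and in whole seedlings fewer cells of a type and less RNA per cell cannot be told apart.

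Values are log2 RMA signals, the authors' background-corrected, quantile-normalised summary of each probe set. A difference of 1 is a doubling of signal. Arrays of a group correlated at 0.9945 to 0.9983 and no array was identical to another. None of the 4 PIF genes has a probe set named here, so the genotype label was not checked by its own genes. Of 6 photosynthesis genes listed as markers of green tissue, 2 had a named probe set, RCA and LHCB4.2, and both were bright on every array, between 12.54 and 14.02.

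IVD stood lowest in white light at the start and higher in every later group. On wild-type arrays it read 8.13, 8.10 and 8.11 at WL0, 8.71, 8.97 and 9.04 at FR1, and 9.77, 9.93 and 10.12 at FR3. On pifq arrays it read 7.53, 7.85 and 7.91 at WL0, 8.21, 8.32 and 8.27 at FR1, and 9.45, 9.19 and 9.15 at FR3. In both lines the 3 groups were in ascending order with no overlap, and at each of the 3 times every pifq array lay below every wild-type array. The choice of the genes used these contrasts, so nothing is read from this. For reference, 23.2% of all probe sets were called at an adjusted p under 0.05 between WL0 and FR1 in the wild type, 36.1% between WL0 and FR3 and 20.2% between FR1 and FR3. In pifq these shares were 5.83%, 29.9% and 15%. Between the lines they were 1.67% at WL0, 13.6% at FR1 and 9.94% at FR3. The share of all probe sets whose groups do not overlap was not counted, and groups can lie apart without a call. At WL0 the LHCB4.2 arrays of the lines did not overlap although the gene was not called (limma adjusted p = 0.52), while those of RCA did overlap.

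The mean difference of IVD from WL0 in the wild type was 0.79 ± 0.11 (SE, n = 3 against 3) after 1 h and 1.83 ± 0.11 after 3 h, a 3.55-fold higher signal. In pifq these differences were 0.51 ± 0.11 and 1.50 ± 0.11, the latter 2.83-fold. The differences share the WL0 arrays of their line. Measured as pifq minus the wild type, the IVD response was -0.29 ± 0.15 at 1 h and -0.32 ± 0.15 at 3 h, values given with no test.

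MCCA, the biotin-carrying subunit, showed its largest step within the first hour. On wild-type arrays it read 9.56, 9.59 and 9.62 at WL0, 10.90, 11.10 and 11.01 at FR1, and 11.53, 11.70 and 11.78 at FR3. On pifq arrays it read 8.75, 9.09 and 9.06 at WL0, 10.13, 10.39 and 10.38 at FR1, and 11.18, 11.11 and 11.04 at FR3. Again no groups of a line overlapped, and pifq lay below the wild type at each time. As for IVD, nothing is read from this, since the choice of the genes used these contrasts.

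MCCA was 1.41 ± 0.10 above WL0 after 1 h in the wild type and 1.33 ± 0.10 above it in pifq, or 2.66-fold and 2.52-fold. After 3 h the differences were 2.08 ± 0.10 and 2.14 ± 0.10, or 4.22-fold and 4.41-fold. The line difference of these responses was -0.08 ± 0.14 at 1 h and 0.06 ± 0.14 at 3 h. Whether the step of MCCA differed between the lines was not tested, since the choice of the genes used these arrays. The starting level of MCCA was lower in pifq, which is also a description.

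MCCB, the carboxyl-transferring subunit, had most of its step between 1 and 3 h. Wild-type arrays read 8.59, 8.64 and 8.59 at WL0, 9.29, 9.24 and 9.49 at FR1, and 10.26, 10.32 and 10.52 at FR3. The pifq arrays read 8.33, 8.26 and 8.43 at WL0, 8.64, 8.91 and 8.91 at FR1, and 9.79, 9.65 and 9.45 at FR3. The groups of each line were in the same ascending order with no overlap, and every pifq array lay below every wild-type array of its time. Nothing is read from this either, and the share of all probe sets that do so was not counted.

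After 1 h MCCB was 0.73 ± 0.10 above WL0 in the wild type and 0.48 ± 0.10 above it in pifq. After 3 h it was 1.76 ± 0.10 above in the wild type and 1.29 ± 0.10 above in pifq, or 3.38-fold and 2.44-fold. The response in pifq minus that in the wild type was -0.25 ± 0.14 at 1 h and -0.47 ± 0.14 at 3 h, again with no test.

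**Figure D1:**
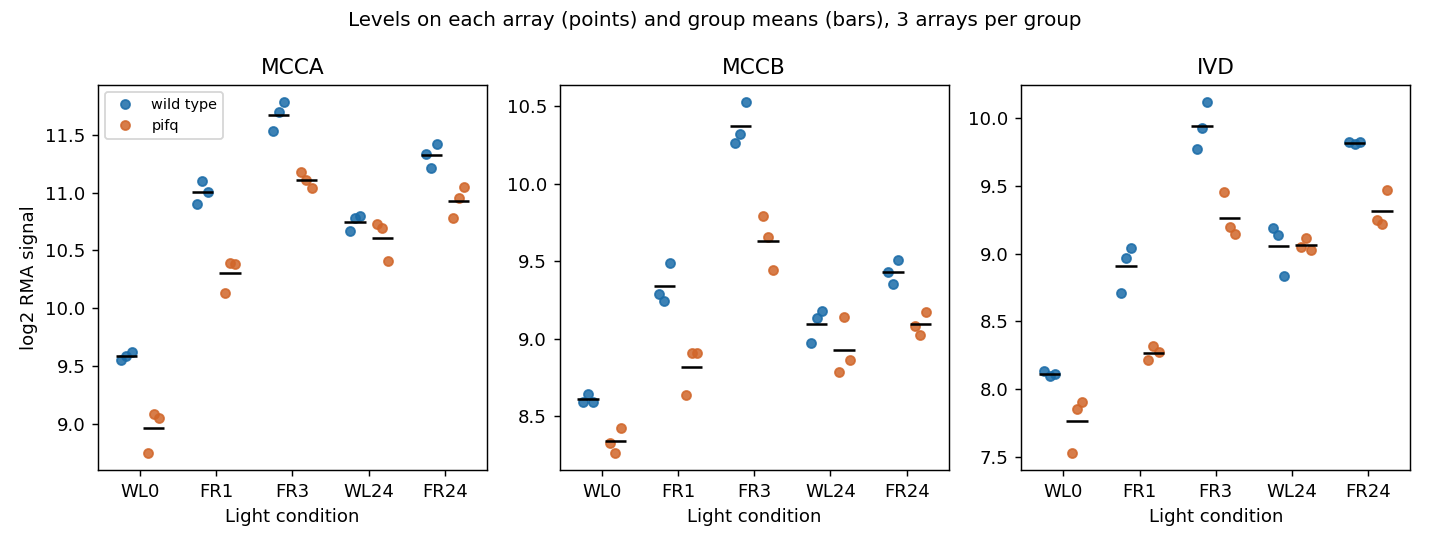
Log2 RMA signal of MCCA, MCCB and IVD (y axes, each panel on its own scale) on all 30 arrays by light condition, with points for arrays, black bars for group means, blue for the wild type and orange for pifq. FR3 holds the highest wild-type mean of each gene (11.67, 10.37 and 9.94), and at WL24 the lines overlap.

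MCCA had the largest share of its 3 h difference present after 1 h in both lines, while the order of MCCB and IVD changed between lines. This share is a description with no error or test. On the log2 scale it was 68.0% for MCCA, 41.5% for MCCB and 43.4% for IVD in the wild type. In pifq it was 62.3%, 37.1% and 33.7%. Between FR1 and FR3 the wild type gained 0.67 ± 0.10 for MCCA, 1.03 ± 0.10 for MCCB and 1.03 ± 0.11 for IVD. In pifq the gains were 0.81 ± 0.10, 0.81 ± 0.10 and 0.99 ± 0.11. RMA compresses the fold of dim and very bright probe sets, so sizes of change in different genes are compared loosely.

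A further day of plain white light also left all 3 transcripts above their level at the start. At WL24 IVD read 9.19, 9.14 and 8.84 in the wild type and 9.05, 9.11 and 9.03 in pifq. MCCA read 10.67, 10.78 and 10.80 in the wild type and 10.72, 10.69 and 10.41 in pifq. MCCB read 8.97, 9.13 and 9.18 in the wild type and 8.78, 9.14 and 8.86 in pifq. Every WL24 array lay above every WL0 array of its line, and the 2 lines overlapped in each gene. Over that day 48.1% of all probe sets passed the test in wild-type seedlings and 49.3% in pifq.

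The difference between WL24 and WL0 in the wild type was 0.94 ± 0.11 for IVD, 1.16 ± 0.10 for MCCA and 0.48 ± 0.10 for MCCB. In pifq it was 1.30 ± 0.11, 1.64 ± 0.10 and 0.59 ± 0.10. Over the same day 2 root hair genes, EXPA7 and EXPA18, moved the other way. These wall-loosening expansins are the 2 of 6 listed root markers with a named probe set. EXPA7 arrays ranged from 7.99 to 8.22 at wild-type WL0 and from 5.82 to 6.17 at WL24. EXPA7 fell by 2.14 ± 0.09 in the wild type and by 1.72 ± 0.09 in pifq, and EXPA18 fell by 1.85 ± 0.10 and 1.60 ± 0.10. The adjusted p of these 4 falls was at most 7.6e-14 (limma), and their part in the results for the leucine genes was not tested.

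The 24 h comparison sets far-red seedlings against white-light seedlings of the same age. At FR24 the wild-type arrays of IVD read 9.82, 9.81 and 9.82, those of MCCA 11.34, 11.21 and 11.42, and those of MCCB 9.43, 9.35 and 9.51. All lay above the 3 WL24 arrays of the same gene. The pifq arrays at FR24 read 9.25, 9.22 and 9.47 for IVD, 10.78, 10.96 and 11.05 for MCCA, and 9.08, 9.02 and 9.17 for MCCB. They lay above the pifq WL24 arrays for IVD and MCCA and overlapped them for MCCB.

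In the wild type all 3 genes were higher at FR24 than at WL24, where 11.6% of all probe sets were called higher and 23.2% were called in either direction. IVD rose by 0.76 ± 0.11, or 1.70-fold (limma adjusted p = 2.0e-06, higher in 3 of 3 arrays). MCCA rose by 0.57 ± 0.10, or 1.49-fold (limma adjusted p = 4.8e-05). MCCB rose by 0.33 ± 0.10, or 1.26-fold (limma adjusted p = 0.014). The MCCB call was lost without wild-type FR24 replicate 3 (adjusted p = 0.066) and without wild-type WL24 replicate 1 (adjusted p = 0.080). In the same comparison the 2 green tissue markers split: LHCB4.2, a light-harvesting protein gene, fell by 0.53 ± 0.07 and RCA, for Rubisco activase, rose by 0.19 ± 0.06 (limma adjusted p = 2.0e-06 and 0.034). Both root markers rose, EXPA7 by 0.85 ± 0.09 and EXPA18 by 0.67 ± 0.10 (limma adjusted p = 2.8e-08 and 8.0e-06). The part of these markers in the result was not tested.

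In pifq 1 of the 3 genes was called at 24 h, beside 14.8% of all probe sets and 7.6% called higher. MCCA rose by 0.32 ± 0.10, or 1.25-fold (limma adjusted p = 0.027). Without pifq FR24 replicate 2 its adjusted p was 0.078, without pifq FR24 replicate 3 it was 0.13, and without pifq WL24 replicate 3 it was 0.17. The call was also lost with array weights (0.069) and with only the groups compared (0.11). The difference was 0.25 ± 0.11 for IVD (limma adjusted p = 0.12) and 0.16 ± 0.10 for MCCB (limma adjusted p = 0.29), with 95% intervals of 0.03 to 0.47 and -0.04 to 0.37.

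Whether the 24 h response differed between the lines was tested by the interaction, in which 3.75% of all probe sets were called. By limma 0 of the 3 genes were called and 1, IVD, had an unadjusted p under 0.05. The response of IVD in pifq minus that in the wild type was -0.51 ± 0.15 (95% interval -0.82 to -0.20, limma adjusted p = 0.051). Without wild-type WL24 replicate 1 this adjusted p was 0.039, and without pifq FR24 replicate 3 it was 0.030. It was also under 0.05 with an intensity trend (0.019), without dim probe sets (0.034) and after median centring (0.046). The interaction was -0.25 ± 0.14 for MCCA (-0.54 to 0.03, adjusted p = 0.35) and -0.17 ± 0.14 for MCCB (-0.46 to 0.12, adjusted p = 0.56).

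**Figure D2:**
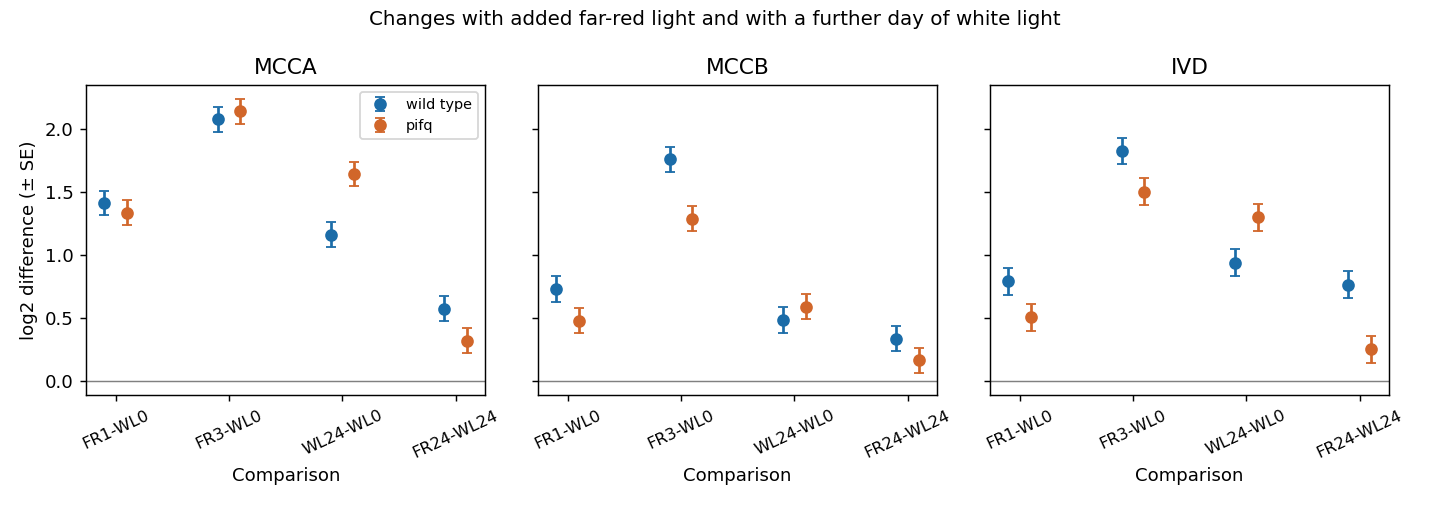
Log2 differences (y axis, ± SE) of MCCA, MCCB and IVD for the comparisons on the x axis, in the wild type (blue) and pifq (orange), from 3 arrays against 3. The first 3 comparisons are descriptions, and the tested FR24 against WL24 difference is the smallest of the 4 for each gene and line, though for wild-type IVD its 0.76 lies close to the 1 h value of 0.79.

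Counted from WL0 instead, the FR24 difference was 1.70 ± 0.11 for IVD, 1.73 ± 0.10 for MCCA and 0.82 ± 0.10 for MCCB in the wild type. In pifq it was 1.55 ± 0.11, 1.96 ± 0.10 and 0.75 ± 0.10. The white-light day alone showed 55.1% of the wild-type difference for IVD, 67.0% for MCCA and 59.1% for MCCB on the log2 scale. In pifq it showed 83.8%, 83.8% and 78.3%. These shares are descriptions and share the WL0 arrays.

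From 3 to 24 h of far-red light the changes of the 3 genes are given as descriptions. FR24 seedlings were also older than FR3 seedlings, so longer far-red light and age cannot be told apart here. Between FR3 and FR24, 41.4% of all probe sets passed the test in wild-type seedlings and 36.7% in pifq. In the wild type the FR24 mean stood at -0.94 ± 0.10 from FR3 for MCCB, with no overlap, while its FR24 arrays stayed above WL0. MCCA at FR24 was lower than at FR3 by -0.35 ± 0.10, also without overlap. The IVD difference was -0.12 ± 0.11 and its groups overlapped. In pifq the FR24 mean minus the FR3 mean was -0.54 ± 0.10 for MCCB, -0.18 ± 0.10 for MCCA and 0.05 ± 0.11 for IVD, and only the MCCB groups did not overlap.

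The lines were then compared within a condition. In white light after the extra day 0 of the 3 genes were called by limma, and 0 had an unadjusted p under 0.05, beside 8.6% of all probe sets called. The difference, pifq minus wild type, was 0.01 ± 0.11 for IVD (95% interval -0.21 to 0.23, limma adjusted p = 0.97). It was -0.14 ± 0.10 for MCCA (-0.34 to 0.06, adjusted p = 0.44) and -0.16 ± 0.10 for MCCB (-0.37 to 0.04, adjusted p = 0.35).

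After 24 h of far-red light all 3 genes were lower in pifq, where 3.85% of all probe sets were called lower and 8.31% in either direction. IVD was lower by -0.50 ± 0.11 (limma adjusted p = 0.0021), with all 3 pifq arrays below all 3 wild-type arrays. MCCA was lower by -0.39 ± 0.10 (limma adjusted p = 0.0097), and the call was lost without wild-type FR24 replicate 3 (adjusted p = 0.054) or pifq FR24 replicate 1 (adjusted p = 0.084). MCCB was lower by -0.34 ± 0.10 (limma adjusted p = 0.032), also without overlap of the lines. Its adjusted p was 0.080 without wild-type FR24 replicate 1, 0.11 without replicate 3, 0.091 without pifq FR24 replicate 1 and 0.12 without replicate 2. These comparisons share the FR24 arrays with the 24 h responses above.

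At the earlier times the same difference is given as a description. For IVD it was -0.35 ± 0.11 at WL0, -0.64 ± 0.11 at FR1 and -0.68 ± 0.11 at FR3. For MCCA it was -0.62 ± 0.10, -0.70 ± 0.10 and -0.56 ± 0.10, and for MCCB -0.27 ± 0.10, -0.52 ± 0.10 and -0.74 ± 0.10. At all 3 times the pifq and wild-type arrays of each gene did not overlap, and nothing is read from this. How many of all probe sets do the same was not counted. The shares called between the lines were 1.67% at WL0, 13.6% at FR1 and 9.94% at FR3. MCCA was already lower before any far-red light, by about the amount seen at FR1, while the MCCB difference was larger at FR3 than at WL0.

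**Figure D3:**
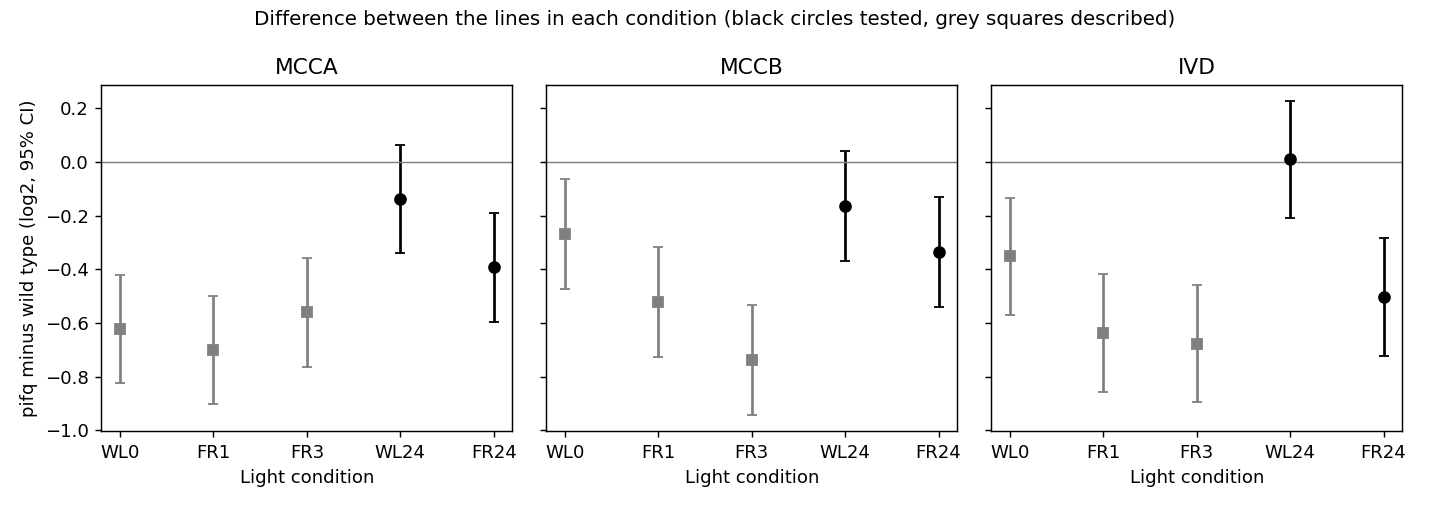
Log2 level in pifq minus that in the wild type (y axis, with 95% intervals) for MCCA, MCCB and IVD in the 5 light conditions on the x axis, from 3 arrays against 3. Grey squares are descriptions, whose intervals do not allow for the choice of the genes and are not read as tests. Black circles were tested: the WL24 intervals include 0, and the FR24 values of -0.39, -0.34 and -0.50 lie below it.

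Ordered over all 10 groups, each gene was highest in wild-type FR3 and lowest in pifq WL0, with wild-type WL0 next to lowest. For MCCA the order from the top was wild-type FR3, wild-type FR24, pifq FR3, wild-type FR1, pifq FR24, wild-type WL24, pifq WL24, pifq FR1, wild-type WL0 and pifq WL0. Its group means ran from 11.67 to 8.97, and neighbours overlapped from the third place, pifq FR3, down to pifq WL24, in 4 of 9 neighbouring pairs. For MCCB the order was wild-type FR3, pifq FR3, wild-type FR24, wild-type FR1, wild-type WL24, pifq FR24, pifq WL24, pifq FR1, wild-type WL0 and pifq WL0. Its means ran from 10.37 to 8.34 and 6 of 9 neighbouring pairs overlapped.

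For IVD the order was wild-type FR3, wild-type FR24, pifq FR24, pifq FR3, pifq WL24, wild-type WL24, wild-type FR1, pifq FR1, wild-type WL0 and pifq WL0. Its means ran from 9.94 to 7.76 and 4 of 9 neighbouring pairs overlapped. The SD within a group was 0.01 to 0.20 for IVD, 0.03 to 0.18 for MCCA and 0.03 to 0.19 for MCCB.

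Over the 10 group means, MCCA and IVD correlated at r = 0.95, MCCA and MCCB at 0.90, and MCCB and IVD at 0.87. These are descriptions: the 3 genes were chosen together, and the points share arrays, light and age. Among 2740 named probe sets whose group means had an SD of at least 0.3, the 4 most like MCCA were AT2G32150 at r = 0.98 and ETFQO, AT2G38820 and AT4G29950 at 0.97. The 4 most like MCCB were ALDH7B4, an aldehyde dehydrogenase gene, at r = 0.98, AT1G71970 and AT4G25580 at 0.97 and AT2G41760 at 0.96. ETFBETA followed at place 5 with r = 0.95. The 4 most like IVD, all at r = 0.98, were AT2G17975, AT5G53490, ATL8 and AT1G03290.

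These neighbours were picked for their likeness over the same 10 means, so their group means are given only to show the pattern. ETFQO stood at 6.96 at wild-type WL0, 7.73 at FR1, 8.41 at FR3 and 8.07 at FR24. ALDH7B4 stood at 9.56, 10.14, 11.08 and 10.30 in those groups, lower at FR24 than at FR3 as MCCB was. ATL8 stood at 4.96, 5.54, 6.93 and 6.30. AT2G17975 stood at 5.64, 6.27, 6.77 and 6.78, with FR24 close to FR3 as in IVD.

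Of 18 other genes listed for mitochondrial breakdown of branched-chain amino acids and its electron transfer, 9 had a named probe set. The other 9 were not analysed here, so the counts do not stand for the whole pathway. In the wild type 2 of the 9 were called higher and 0 lower at FR1, beside 10.7% and 12.5% of all probe sets. At FR3 it was 6 higher and 1 lower, beside 18.1% and 18%. The median change of the 9 at FR3 was 0.42, against 0.00 over all probe sets. Both root markers fell at wild-type FR3, EXPA7 by 1.02 ± 0.09 and EXPA18 by 0.97 ± 0.10 (limma adjusted p = 2.6e-10 and 4.6e-09). Of the green tissue markers, LHCB4.2 rose by 0.33 ± 0.07 (limma adjusted p = 0.00058) and RCA measured -0.03 ± 0.06 (adjusted p = 0.80).

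In pifq 2 were called higher and 0 lower at FR1, beside 2.94% and 2.89% of all probe sets, and 5 higher and 1 lower at FR3, beside 14.6% and 15.3%. Without any 1 of the 6 arrays of the FR1 comparison the first count was 1. The median of the 9 at FR3 was 0.37 in pifq, against 0.02 over all probe sets. In pifq at FR3 EXPA7 fell by 0.78 ± 0.09, EXPA18 fell by 0.70 ± 0.10 and LHCB4.2 rose by 0.57 ± 0.07 (limma adjusted p = 1.1e-07, 2.9e-06 and 3.9e-07), while RCA measured 0.03 ± 0.06 (adjusted p = 0.83). The part of these markers in either count was not tested.

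Genes of the electron transfer that accepts electrons from IVD were among those that rose. ETFQO read 6.82, 7.09 and 6.96 at wild-type WL0, 7.71, 7.71 and 7.76 at FR1, and 8.34, 8.39 and 8.50 at FR3. It rose by 0.77 ± 0.10 and 1.45 ± 0.10 (limma adjusted p = 1.7e-06 and 9.8e-13), and in pifq by 0.76 ± 0.10 and 1.35 ± 0.10 (limma adjusted p = 5.7e-06 and 1.2e-11). None of its groups overlapped WL0 in either line. The ETFQO response did not pass the test of a difference between lines at any time, with limma adjusted p of 0.98, 0.90 and 0.54 at 1, 3 and 24 h.

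ETFBETA, which encodes a subunit of the electron transfer flavoprotein, read 7.76, 7.63 and 7.65 at wild-type WL0 and 8.90, 8.73 and 9.04 at FR3. In pifq it read 7.75, 7.81 and 7.70 at WL0 and 8.63, 8.26 and 8.32 at FR3. It rose by 1.21 ± 0.09 in the wild type (limma adjusted p = 5.9e-12) and by 0.65 ± 0.09 in pifq (limma adjusted p = 2.3e-06). The 2 lines overlapped at WL0 and did not at FR3, and the 3 h response was smaller in pifq by -0.56 ± 0.13 (limma adjusted p = 0.011, beside 3.2% of all probe sets called). ETFALPHA, the other subunit, rose at FR3 by 0.64 ± 0.08 in the wild type and 0.37 ± 0.08 in pifq (limma adjusted p = 2.2e-07 and 0.00086), with a difference between lines of -0.27 ± 0.12 (adjusted p = 0.32).

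**Figure D4:**
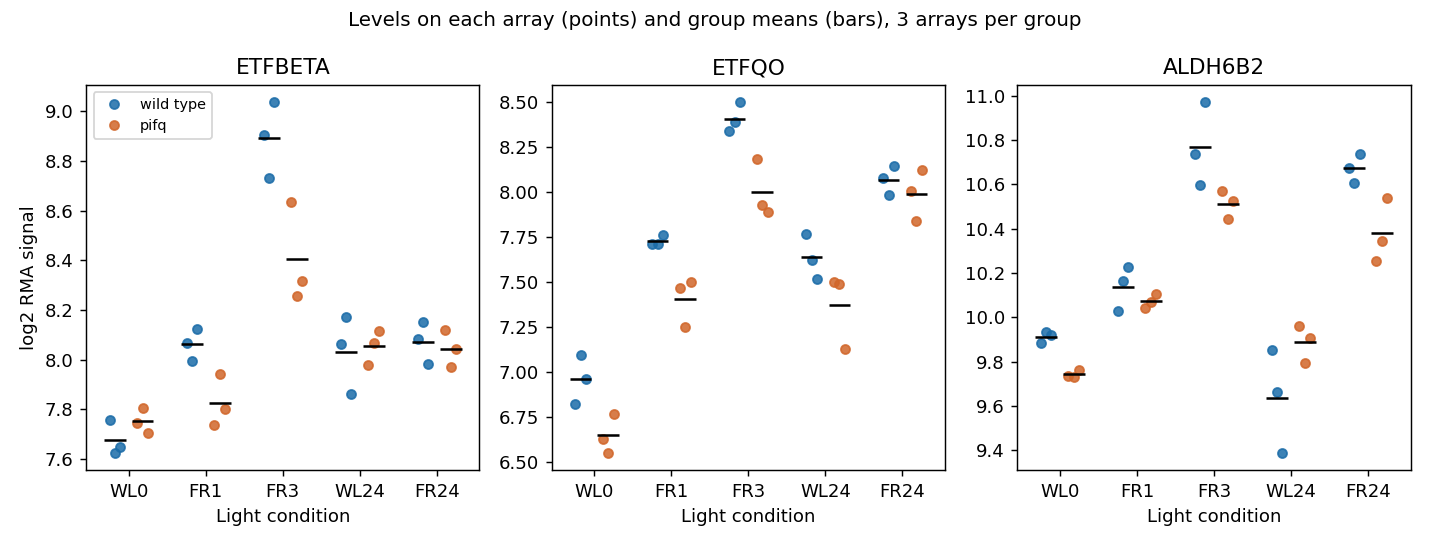
Log2 RMA signal (y axes, each panel on its own scale) of ETFBETA, ETFQO and ALDH6B2 on all 30 arrays by light condition, with points for arrays, black bars for group means, blue for the wild type and orange for pifq. ETFBETA peaks at FR3 and overlaps between white and far-red light at 24 h, while ALDH6B2 at FR24 lies above WL24 in both lines.

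ALDH6B2, an aldehyde dehydrogenase gene on the valine branch, rose by 0.86 ± 0.10 in the wild type and 0.77 ± 0.10 in pifq at FR3 (limma adjusted p = 1.3e-08 and 2.1e-07). D2HGDH, for D-2-hydroxyglutarate dehydrogenase, which also feeds electrons to the flavoprotein, rose in the wild type by 0.24 ± 0.09 at FR3 (limma adjusted p = 0.048). Its change in pifq was 0.19 ± 0.09 (adjusted p = 0.13). Of the 4 listed loci with no gene symbol in the annotation used here, AT4G20930, listed as HDH1, rose by 0.42 ± 0.11 in the wild type and 0.44 ± 0.11 in pifq (limma adjusted p = 0.0041 and 0.0032).

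The other 3 loci without a symbol were not called higher at FR3. They were listed as BCKDH E1A2 (AT5G09300), MGCH (AT4G16800) and HML1 (AT2G26800). AT5G09300 fell by 0.33 ± 0.11 in the wild type at FR3 (limma adjusted p = 0.021), and its pifq value was -0.29 ± 0.11 (adjusted p = 0.052). AT4G16800 fell by 0.21 ± 0.07 in pifq (limma adjusted p = 0.019) and measured -0.13 ± 0.07 in the wild type (adjusted p = 0.17). AT2G26800 measured -0.06 ± 0.08 and 0.15 ± 0.08 (adjusted p = 0.62 and 0.15).

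At 24 h the list was split. In the wild type 3 of the 9 were called higher and 2 lower, beside 11.6% and 11.6% of all probe sets, and in pifq 2 and 2, beside 7.6% and 7.25%. The median change of the 9 was 0.12 in the wild type and -0.01 in pifq, against 0.00 and -0.03 over all probe sets. ALDH6B2 read 10.67, 10.60 and 10.74 at wild-type FR24 and 9.85, 9.66 and 9.39 at WL24, with no overlap. It rose by 1.04 ± 0.10 (limma adjusted p = 8.5e-10). In pifq it rose by 0.49 ± 0.10 (limma adjusted p = 0.00056), and the response was smaller there by -0.55 ± 0.14 (limma adjusted p = 0.017).

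ETFQO rose at 24 h by 0.43 ± 0.10 in the wild type and 0.62 ± 0.10 in pifq (limma adjusted p = 0.0020 and 7.6e-05), and D2HGDH by 0.42 ± 0.09 in the wild type (limma adjusted p = 0.0010), with 0.15 ± 0.09 in pifq (adjusted p = 0.31). ETFBETA, high at 3 h, measured 0.04 ± 0.09 and -0.01 ± 0.09 at 24 h (adjusted p = 0.82 and 0.96). ETFALPHA fell by 0.25 ± 0.08 in the wild type (limma adjusted p = 0.025) and measured -0.15 ± 0.08 in pifq (adjusted p = 0.25). AT4G20930 fell by 0.51 ± 0.11 and 0.55 ± 0.11 (limma adjusted p = 0.0011 and 0.0011), and AT2G26800 fell in pifq by 0.22 ± 0.08 (limma adjusted p = 0.048).

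**Figure D5:**
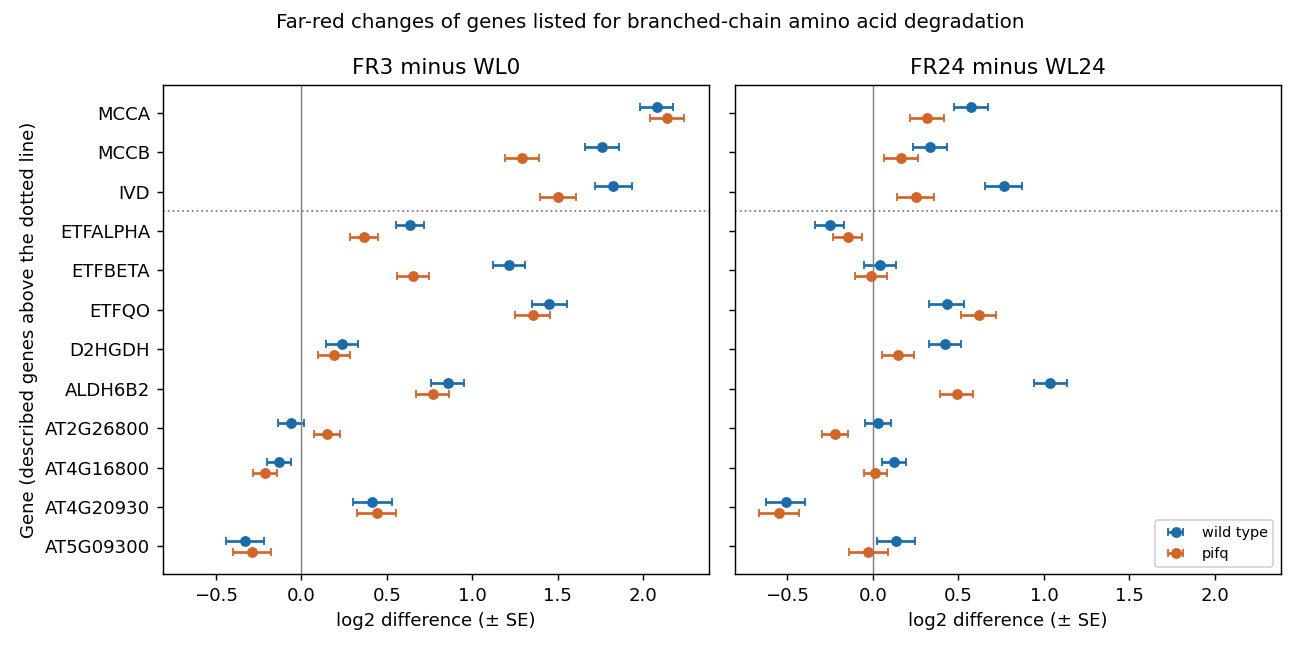
Log2 differences (x axes, ± SE, 3 arrays against 3) of the 12 genes on the y axis at 3 h (left) and 24 h (right) of far-red light, in the wild type (blue) and pifq (orange). At 3 h in the wild type ETFQO at 1.45 and ETFBETA at 1.21 lie nearest to the 3 described genes, and at 24 h ALDH6B2 at 1.04 in the wild type lies farthest to the right.

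Between the lines, 0 of the 9 were called higher and 3 lower in pifq at FR3, beside 5.47% and 4.47% of all probe sets. These were ETFBETA at -0.49 ± 0.09, ETFQO at -0.41 ± 0.10 and ETFALPHA at -0.27 ± 0.08 (limma adjusted p = 0.00047, 0.0074 and 0.034), all 3 being parts of the electron transfer that accepts electrons from IVD. ETFQO arrays were already lower in pifq at WL0, at 6.55 to 6.76 against 6.82 to 7.09 in the wild type. Between the lines at WL0, 0 of the 9 were called, beside 1.67% of all probe sets. At FR24 AT2G26800 alone was called, lower by -0.40 ± 0.08 (limma adjusted p = 0.00067), beside 3.85% of all probe sets called lower. It was 1 of 9, and the count ranged from 1 to 2 when single arrays were left out. At WL24 AT5G09300 and AT4G16800 were called higher in pifq, by 0.47 ± 0.11 and 0.25 ± 0.07 (limma adjusted p = 0.0067 and 0.021), beside 4.3% of all probe sets called higher. Without wild-type WL24 replicate 3 or any 1 of the 3 pifq WL24 arrays that count was 1.

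Of 17 genes listed for the synthesis of leucine, isoleucine and valine, 4 had a named probe set, and they split. At wild-type FR3 1 was called higher and 2 lower, beside 18.1% and 18% of all probe sets. AT2G31810 rose by 1.04 ± 0.08, AT3G23940 fell by 1.22 ± 0.12 and AT3G58610 fell by 0.71 ± 0.10 (limma adjusted p = 2.1e-11, 7.1e-10 and 5.4e-07). In pifq they moved the same ways, by 0.94 ± 0.08, -0.91 ± 0.12 and -0.46 ± 0.10 (limma adjusted p = 4.3e-10, 4.1e-07 and 0.00043). At 24 h AT2G31810 was the 1 of the 4 called in either line, and it rose by 0.61 ± 0.08 in the wild type and 0.38 ± 0.08 in pifq (limma adjusted p = 1.9e-06 and 0.0023). The median of the 4 at wild-type FR3 was -0.33.

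Of 18 genes for the breakdown of other amino acids, 3 had a named probe set and 2 were called higher at wild-type FR3, beside 18.1% of all probe sets. MGL, methionine gamma-lyase, which breaks methionine down toward isoleucine synthesis, rose by 2.75 ± 0.10 in the wild type and 1.03 ± 0.10 in pifq (limma adjusted p = 5.8e-20 and 6.8e-10). Its response was smaller in pifq by -0.67 ± 0.13 at 1 h and -1.72 ± 0.13 at 3 h (limma adjusted p = 0.011 and 2.3e-10), beside 0.475% and 3.2% of all probe sets called for such a difference. MGL read 8.60, 8.93 and 8.90 at wild-type FR3 and 6.99, 6.92 and 6.87 at pifq FR3, with no overlap. LKR/SDH (AT4G33150), the bifunctional enzyme that opens lysine breakdown, rose by 0.44 ± 0.08 and 0.46 ± 0.08 (limma adjusted p = 4.8e-05 and 4.5e-05), and at 24 h it measured -0.20 ± 0.08 in the wild type (adjusted p = 0.079) and fell by 0.25 ± 0.08 in pifq (limma adjusted p = 0.037). MGL at 24 h measured 0.21 ± 0.10 in the wild type (adjusted p = 0.12) and rose by 0.31 ± 0.10 in pifq (limma adjusted p = 0.026).

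Of 8 genes of SnRK1 and bZIP energy signalling, 2 had a named probe set. At wild-type FR3 0 of the 2 were called, beside 36.1% of all probe sets. The lower of the 2 p-values was that of bZIP44, at 0.26 ± 0.10 (limma adjusted p = 0.0504), and it was the 1 of the 2 with an unadjusted p under 0.05. At wild-type FR1 bZIP53 was called higher, by 0.30 ± 0.07 (limma adjusted p = 0.0027), beside 10.7% of all probe sets. From FR1 to FR3 in the wild type bZIP53 changed by -0.33 ± 0.07 and bZIP44 by 0.31 ± 0.10 (limma adjusted p = 0.00097 and 0.032), beside 20.2% called. In pifq 0 of the 2 were called at FR1, at FR3 or between them, beside 5.83%, 29.9% and 15% of all probe sets. The listed dark-induced genes (8), the biotin genes (10) and the seed genes (5) had no probe set named here and were not analysed.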

How the data were processed

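The deposited values are log2 expression values that the authors computed with RMA (background correction, quantile normalization, probe set summary), as the submitters' processing notes say without a version. Quantile normalization hides any shift of most transcripts, and scan dates or array batches were not used here.

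The table held 22810 probe sets on 30 arrays, and 64 control probe sets were left out. Of 22746 tested, 13436 had exactly 1 locus in the platform annotation joined to RefSeq (TAIR10.1), and only these were named. Each of the 3 genes had 1 probe set. With limma 3.58.1 in R 4.3.3, all 30 arrays entered 1 linear model of group means (20 residual and 9.44 prior degrees of freedom). P-values are two-sided and Benjamini-Hochberg adjusted over all probe sets, and calls are at an adjusted p under 0.05. Precision is limited by having 3 arrays in each group. The fit was tested on simulated data.

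The genes and lists were chosen with earlier results of these data known. The 9 listed branched-chain breakdown genes with a named probe set were all named. Of each other list the text names the 3 largest called changes at wild-type FR3 or FR24, or else the lowest p. The gene bZIP53 is named as well, for its call at wild-type FR1. Likeness is Pearson r over the 10 group means. Replicate numbers were not taken to pair the arrays, so the fit has no block. Alternatives were single arrays left out, only the groups compared, array weights, an intensity trend, no dim probe sets (mean under 5), median centring, a replicate block, WL0 as the 24 h control, and r over 30 arrays. No sequences are printed, since none were among the sources used here.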

Additional observations from a re-analysis of the deposited data

Results flagged for a closer look

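Responses at 3 times were compared between the lines for 22 listed genes beside MCCA, MCCB and IVD, which makes 66 tests. In 6 of them the response differed by the test of the interaction, where 0.475% of all probe sets were called at 1 h, 3.2% at 3 h and 3.75% at 24 h. Each difference is given as the response in pifq minus that in the wild type with limma adjusted p. MCCA, MCCB and IVD, compared in this way at 24 h only, were not called. ETFBETA, a subunit of the electron acceptor of IVD, had a 3 h difference of -0.56 ± 0.13 (adjusted p = 0.011). ALDH6B2 had a 24 h difference of -0.55 ± 0.14 (adjusted p = 0.017). MGL, for methionine breakdown, had -0.67 ± 0.13 at 1 h (adjusted p = 0.011) and -1.72 ± 0.13 at 3 h (adjusted p = 2.3e-10). Of the tissue markers, LHCB4.2 had 0.58 ± 0.10 at 24 h (adjusted p = 0.0010), its response being negative in the wild type and near 0 in pifq. EXPA7 had -0.56 ± 0.13 at 24 h (adjusted p = 0.012).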

How the results depend on the processing

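The described differences of the 3 genes gave 270 values in alternative settings and 306 values with 1 array left out. All stayed within 1 within-group SD of the main value, but some near 0 changed sign. With single arrays left out the MCCA interaction reached 0.0075 at 1 h and -0.045 at 3 h. The IVD difference of FR24 from FR3 in pifq reached -0.029. Of the tested differences, the MCCA rise in pifq at 24 h was no longer called with array weights (0.29, adjusted p = 0.069) or with only the groups compared (0.32, adjusted p = 0.11). The 24 h interaction of IVD was called with an intensity trend (-0.51, adjusted p = 0.019), without dim probe sets (-0.51, adjusted p = 0.034) and after median centring (-0.53, adjusted p = 0.046). The IVD difference between lines at WL24, near 0, was -0.027 with array weights (adjusted p = 0.93). With WL0 as the 24 h control, a value with no test since the choice of genes used those arrays, MCCA, MCCB and IVD stood at 1.73, 0.82 and 1.70 in the wild type and at 1.96, 0.75 and 1.55 in pifq. When single arrays were left out, values ranged from 0.27 to 0.38 for MCCB in the wild type at 24 h and from 0.22 to 0.39 for MCCA in pifq. The IVD interaction ranged from -0.59 to -0.40. The line difference at FR24 ranged from -0.45 to -0.32 for MCCA and from -0.38 to -0.30 for MCCB, and that of IVD at WL24 from -0.10 to 0.077, negative without wild-type WL24 replicate 3 (-0.10) or pifq WL24 replicate 2 (-0.016). Of the 9 other breakdown genes, the calls between lines at FR24, 1 in all, were 2 with array weights, an intensity trend, median centring or the replicate block, and 3 without dim probe sets. They ranged from 1 to 2 over single arrays left out. At WL24 the 2 calls became 1 with array weights or only the groups compared and ranged from 1 to 3 over single arrays. The 2 calls in pifq at FR1 were 1 without any 1 array. Of the 4 genes most like IVD, 2 remained when r was taken over 30 arrays. The causes were not tested. Deviations of same-numbered arrays from their group means correlated at -0.21 to 0.28, median 0.01. Of 135 same-numbered pairs 19 were over 0.1, and 15 arrays were closest on average to their own number. Pairing of some arrays is therefore not excluded. With the replicate block, no call of the 3 genes changed. No listed locus had several probe sets, so their mean was not run. Where another locus had several, the probe set of highest mean signal stood for it. With 3 arrays per group, small differences could not be told from 0.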
